A study of Mus musculus with 23 samples.

Results

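The genes described here code for the enzymes that copy DNA and for the regulators that carry a cell into S phase. The list held 43 genes, and 42 of them were measured among the 18194 genes on the array. Chaf1a had no probe set annotated to it alone. Each gene was read through the probe set annotated to it alone with the highest mean over all arrays, so no difference between groups entered the choice.

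The study sorted mouse CD4+ T cells on 2 surface proteins, the interleukin-2 receptor subunit CD25 and the integrin subunit CD49f, which pairs into laminin receptors. RNA of each sort was hybridised to an Affymetrix array. CD25-CD49f- and CD25-CD49f+ cells had 7 arrays each, the CD25+CD49f- gate had 5 and the CD25+CD49f+ gate 4, 23 in all, and the number of arrays limits the precision. Every sample was labelled as a biological replicate from a female, and nothing but the sort gate separated the groups in the labels. Strain, age, organ of origin, any treatment and any pooling of mice are not given in the sources used here. All values below are log2 expression, all differences are log2 differences with their standard error, and a gene was called at a limma adjusted p under 0.05 over all 18194 genes.

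Before a cell can copy its genome, the origin recognition complex, Cdc6 and Cdt1 load rings of Mcm2 to Mcm7 onto origins of replication. Cdc45, the GINS proteins and Mcm10 then turn these rings into active helicases, and polymerase alpha with primase starts each new strand. The sliding clamp Pcna, placed by the Rfc clamp loader, tethers polymerases delta and epsilon, while ribonucleotide reductase supplies deoxynucleotides. Most of these genes are transcribed at the border of G1 and S phase under E2F factors, and resting T cells hold many of them low until they divide.

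Because E2F factors bind near the start of many of these genes, the members' promoter windows were searched for E2F-type words. RefSeq promoter windows (assembly GRCm38.p6, 300 bases, 250 of them before the start) existed for 36 members. Prim2, Gins1, Gins2, Ccne2, Pole, Mcm4 and Rfc2 had none. At least 1 of the E2F-type words TTTGGCGC, TTTCCCGC, TTTCGCGC and TTTGCCGC, on either strand and with overlaps counted, stood in the windows of 13 members (36.1%), against 2.61% of 27025 genes and 3.81% of the 14453 genes on the array that had a window. The CCAAT word stood in 61.1% of the members' windows and 41.1% of all. The members' windows were also richer in G and C, with a median of 61.3% against 52.7% over all genes and 58.3% over those on the array. Matches were not adjusted for this. The stretches below show matches that lie wholly before the start site, in genes of the helicase and of origin licensing, the clamp loader and polymerase alpha. Capitals mark the matches.
Mcm5 (chr8:75109326-75109397, plus strand): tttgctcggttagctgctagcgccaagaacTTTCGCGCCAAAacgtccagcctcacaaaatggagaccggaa
Mcm6 (chr1:128359715-128359845, minus strand): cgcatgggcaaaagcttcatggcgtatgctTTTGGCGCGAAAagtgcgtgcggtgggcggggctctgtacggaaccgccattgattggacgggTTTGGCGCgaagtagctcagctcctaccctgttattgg
Mcm7 (chr5:138172011-138172078, minus strand): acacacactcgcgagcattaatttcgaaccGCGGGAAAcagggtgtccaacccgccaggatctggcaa
Cdc6 (chr11:98907983-98908050, plus strand): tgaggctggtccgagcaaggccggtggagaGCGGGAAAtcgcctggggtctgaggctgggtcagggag
Orc1 (chr4:108579397-108579453, plus strand): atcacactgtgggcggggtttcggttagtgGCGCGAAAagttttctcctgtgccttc
Pola1 (chrX:93632256-93632323, minus strand): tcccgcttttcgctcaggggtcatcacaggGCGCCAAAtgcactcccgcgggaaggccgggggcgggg
Rfc3 (chr5:151651209-151651248, minus strand): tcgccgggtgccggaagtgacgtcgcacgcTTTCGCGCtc
In Mcm5 and Mcm6 matches of opposite strands overlap in a run of 12 letters. The other members with a match in the window were Cdt1, E2f2, Lig1, Mcm3, Pclaf and Pold1.

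Some arrays stood apart or went against their labels. All animals were labelled female, yet Y-linked transcripts without Xist were read on 10 arrays, both kinds on CD25+CD49f- replicate 5, and Xist alone on 12 arrays. Mean correlation with the other arrays of the group was lowest, between 0.967 and 0.981, for CD25-CD49f- replicates 1 and 7, CD25-CD49f+ replicate 1 and CD25+CD49f- replicate 5, and was 0.985 to 0.994 for the rest. The difference between the 3' and 5' probe sets of Actb, a measure of RNA integrity, was 4.83 for CD25+CD49f- replicate 5, 2.70 for CD25-CD49f- replicate 1 and 1.22 to 2.09 elsewhere. On arrays without Xist its probe set still read up to 6.50, and a group mean under this level is described below as in the background range. The level comes from 1 probe set, and levels are not comparable between probe sets, so it is only a rough guide. Means under 6.50 were found for 13 members in CD25-CD49f- cells and for 7, 4 and 3 in CD25+CD49f-, CD25+CD49f+ and CD25-CD49f+ cells. T cell transcripts were read in every gate, with a mean of 11.0 to 11.1 over 7 markers of CD4 T cells in each group. Single markers of other cell types also read high. The plasma cell marker Jchain had group means of 10.81 to 11.47, and in CD25-CD49f- cells H2-Aa stood at 11.11 and Cd74 at 11.02. The share of other cells in the gates was not tested. The mean over 10 myeloid and dendritic markers was 8.70 ± 0.50 (SD, n = 7) in CD25-CD49f- cells and 7.51 to 7.93 in the other groups. Group means of the other lists spanned 5.85 to 6.10 for B cells, 7.70 to 7.84 for plasma cells, 5.67 to 5.86 for erythroid cells, 6.12 to 6.70 for NK cells and 4.97 to 5.21 for thymocytes.

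Replication genes were highest in CD25-CD49f+ cells and lowest in CD25-CD49f- cells. Over the 42 members, CD25-CD49f- arrays averaged 7.50 ± 0.13 (SD, n = 7), the CD25+CD49f- arrays 7.99 ± 0.15 (SD, n = 5), the CD25+CD49f+ arrays 8.26 ± 0.14 (SD, n = 4) and the CD25-CD49f+ arrays 8.47 ± 0.11 (SD, n = 7). The member means followed this very order in 26 of 42 genes. CD25-CD49f- cells had the lowest mean in 36 members and the highest in 0. CD25-CD49f+ cells had the highest mean in 32, CD25+CD49f+ cells in 9 and CD25+CD49f- cells, through Pold1, in 1. In bulk RNA, a larger share of cells in S phase and more replication RNA per cell cannot be told apart.

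**Figure D1:**
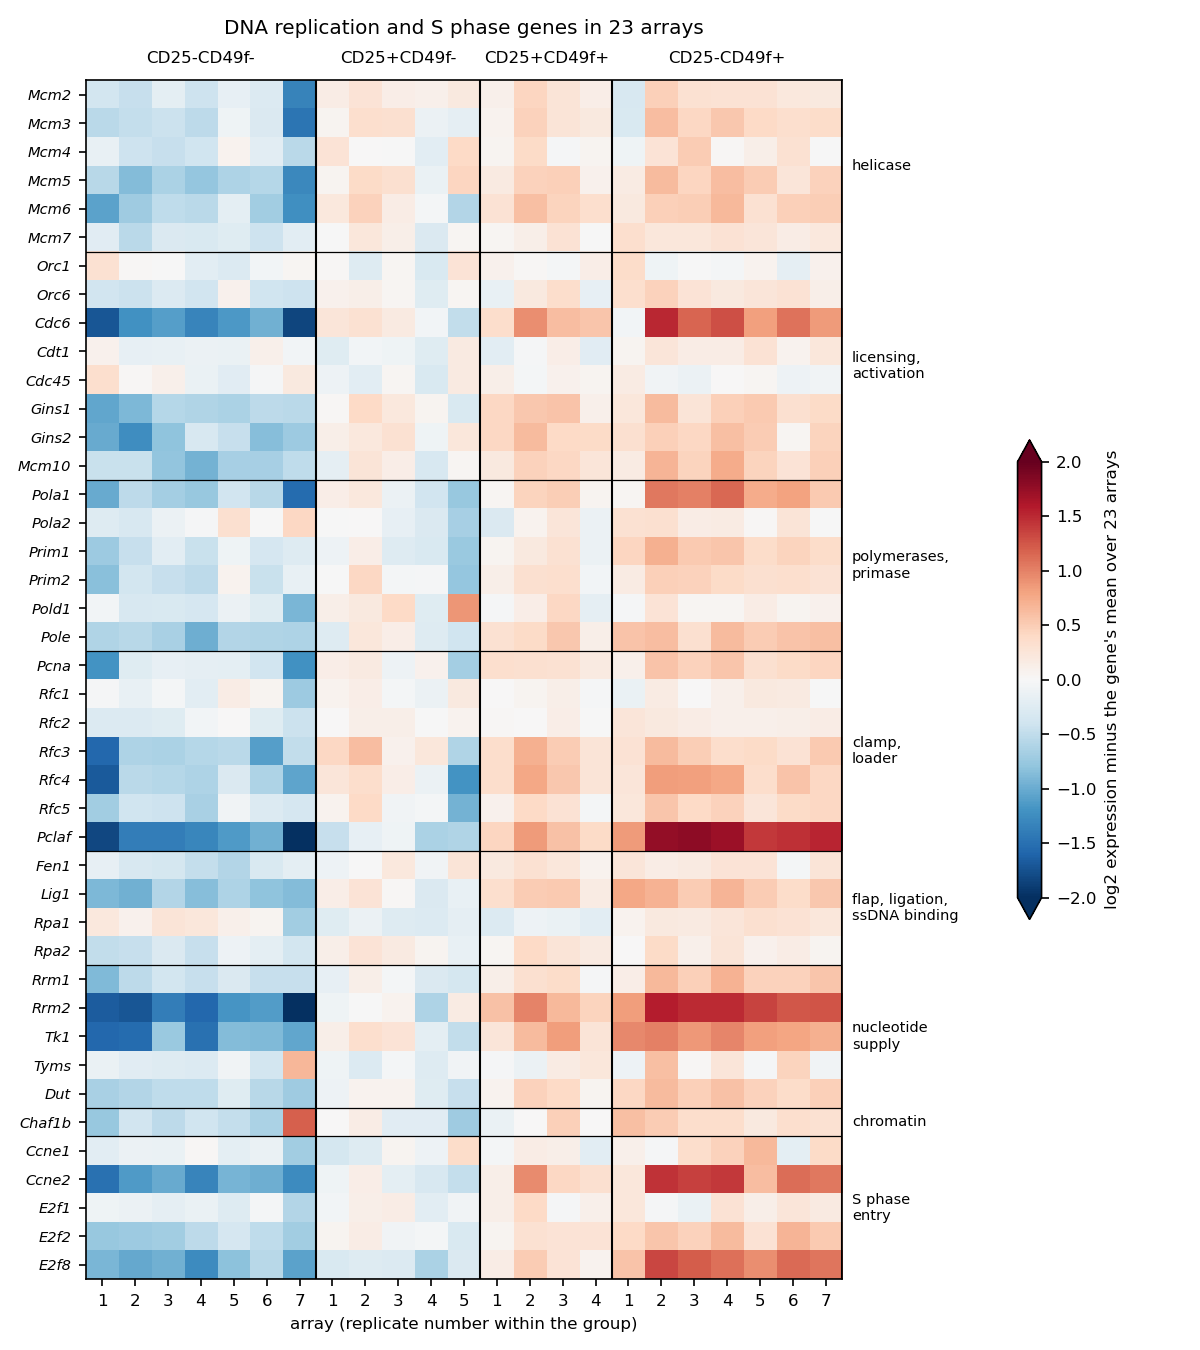
Colours give the log2 expression of each of 42 members on each of 23 arrays, minus the gene's mean over all arrays, with genes in rows by role and arrays in columns by group. The CD25-CD49f- columns are mostly blue (below the gene's mean) and the CD25-CD49f+ columns mostly red (above it), with Pclaf, Rrm2, Cdc6 and Ccne2 spanning the widest range and replicate 7 of CD25-CD49f- cells standing out in Chaf1b and Tyms.

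Among CD25- cells, 36 of 42 members were higher in CD49f+ than in CD49f- cells and 0 were lower, where 8.01% of all genes were called higher and 5.42% lower. The median difference of the members was 0.87, against -0.02 over all genes, and 18 members differed by at least 1. In 29 members every CD25-CD49f+ array lay above every CD25-CD49f- array, as it did in 4.07% of all genes. The largest differences were those of Pclaf (3.04 ± 0.20), Rrm2 (2.96 ± 0.19), Cdc6 (2.28 ± 0.19), Ccne2 (2.20 ± 0.16), Tk1 (2.04 ± 0.14) and E2f8 (2.0 ± 0.11). Over the alternative settings listed below, their lowest values were 1.25, 2.76, 2.19, 2.05, 1.93 and 0.95 in that order. Pclaf was thus not first in all of these settings. For Cdc6, Ccne2, Tk1 and E2f8 the CD25-CD49f- mean lay in the background range, so the size of these differences, and their order, may be limited by background. Orc1, Cdc45, Pola2, Rfc1, Rpa1 and Tyms did not pass the test, with differences from -0.06 to 0.26. Myeloid and dendritic markers moved the other way, 6 of 10 being lower in CD25-CD49f+ cells, with Itgax at 6.66 against 8.58 and Siglech at 5.73 against 7.09. Of 5 NK markers 1 was called lower and 1 higher. The NK receptor gene Klrd1 stood at 7.65 against 9.09 and Eomes at 7.66 against 7.11. Of 6 plasma cell and 6 erythroid markers 1 each was called higher, and of 6 thymocyte markers 1 was called lower. The part of these markers in the member differences was not tested. The 12 arrays without Y-linked transcripts called 29 members and the 10 with Y-linked transcripts alone called 30, with medians of 0.90 and 0.93. Without the 4 arrays that stood apart 37 members were called.

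Against the same CD25-CD49f- cells, replication genes were also higher in the CD25+CD49f- gate. Of the 42 members 27 were higher and 0 lower, where 9.34% of all genes were called higher and 4.68% lower, and the median difference was 0.43 against -0.01 over all genes. The comparison shares its CD25-CD49f- arrays with that of CD49f in CD25- cells. Of the myeloid and dendritic markers 3 of 10 were lower in CD25+CD49f- cells. Single markers of other lists also differed: the NK receptor gene Klrd1 stood at 6.53 against 9.09, Eomes at 8.39 against 7.11, Gata1 at 8.0 against 6.69 and Prdm1 at 7.68 against 6.54. The part of these markers in the member differences was not tested. Every CD25+CD49f- array lay above every CD25-CD49f- array in 14 members and in 5.68% of all genes. Rrm2 (1.54 ± 0.21), Cdc6 (1.36 ± 0.20), Tk1 (1.17 ± 0.16) and Pclaf (1.15 ± 0.22) were the 4 members past a difference of 1. The arrays without Y-linked transcripts called 18 members and the Y-linked arrays 12, with medians of 0.59 and 0.45. Without the 4 arrays that stood apart 30 were higher and 1, Rpa1, was lower. Fits without 1 array called 23 to 29 members, with Pola1 lost in 9 of 23, Mcm4 and Orc6 in 6 each and Rrm1 in 4.

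**Figure D2:**
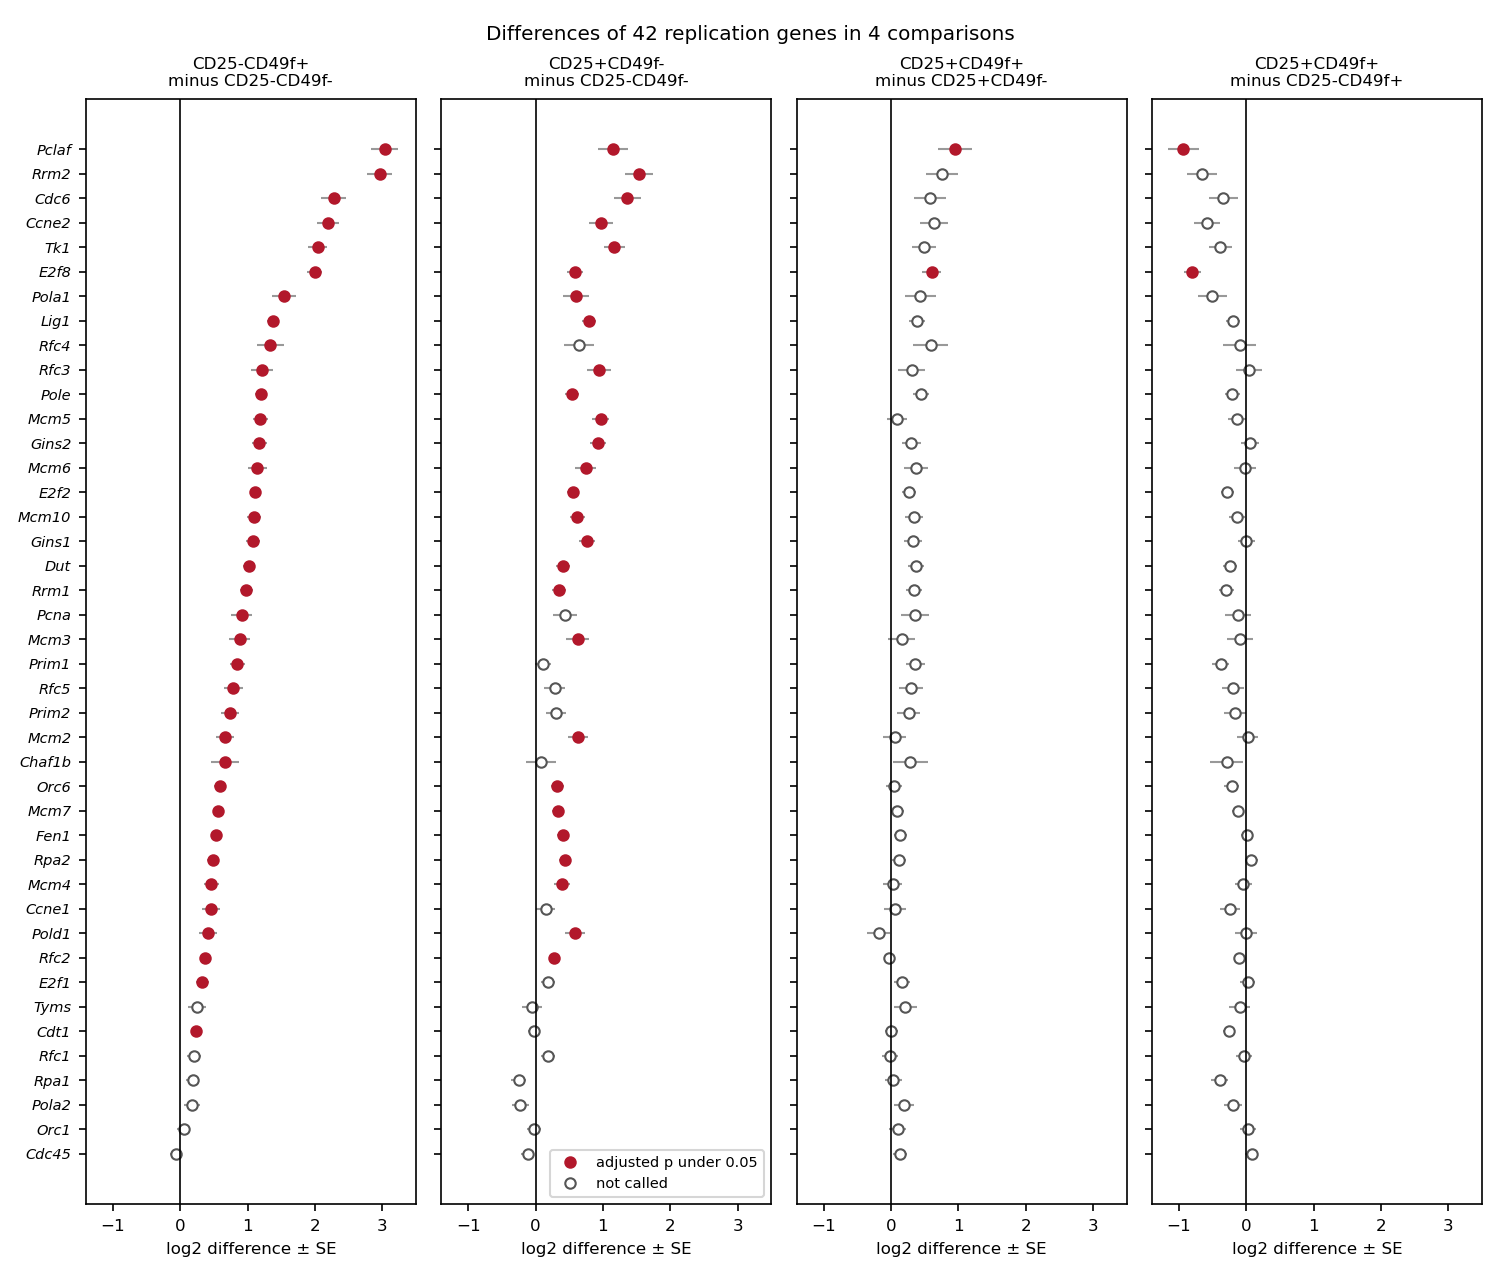
Points give the log2 difference of each of 42 members in 4 comparisons, with bars for the standard error. Filled red points were called at an adjusted p under 0.05: 36 for CD49f in CD25- cells, 27 for CD25 in CD49f- cells, and only Pclaf and E2f8 in each comparison with CD25+CD49f+ cells, above 0 against CD25+CD49f- cells and below 0 against CD25-CD49f+ cells.

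All 6 subunits of the Mcm2 to Mcm7 helicase, the motor that unwinds DNA ahead of the fork, were called in both comparisons with CD25-CD49f- cells, with medians of 0.77 for CD49f in CD25- cells and 0.63 for CD25 in CD49f- cells. Mcm5 ran from 8.81 over a median of 9.47 to 9.54 in CD25-CD49f- cells and from 10.26 over 10.55 to 10.73 in CD25-CD49f+ cells. In CD25+CD49f- cells the Mcm5 values were 10.15, 10.49, 10.41, 9.97 and 10.53, and in CD25+CD49f+ cells 10.28, 10.56, 10.58 and 10.19. All 3 groups thus lay above every CD25-CD49f- array and overlapped one another. The Mcm5 difference was 1.19 ± 0.11 (adjusted p = 1.76e-08) for CD49f in CD25- cells, 0.97 ± 0.13 (adjusted p = 2.21e-06) for CD25 in CD49f- cells and 0.09 ± 0.14 (adjusted p = 0.999) for CD49f in CD25+ cells. Mcm4 had the largest p of the subunits. It ran from 9.69 over 9.83 to 10.30 in CD25-CD49f- cells and from 10.15 over 10.35 to 10.74 in CD25-CD49f+ cells. Its CD25+CD49f- values were 10.50, 10.23, 10.22, 10.02 and 10.63, and its CD25+CD49f+ values were 10.29, 10.62, 10.20 and 10.29. The groups overlapped, and the differences were 0.46 ± 0.11 (adjusted p = 0.00465) and 0.39 ± 0.12 (adjusted p = 0.0294) in the same 2 comparisons, the second lost in 6 of 23 fits without 1 array. The helicase set CD25+CD49f+ and CD25+CD49f- cells least apart of the roles with several members, its median difference for CD49f in CD25+ cells being 0.09.

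Of the genes that license origins and activate the helicase, 6 of 8 were higher for CD49f in CD25- cells (median 0.84) and 5 of 8 for CD25 in CD49f- cells (median 0.47). Cdc6, the ATPase that helps load the Mcm ring, ran from 4.73 over 5.37 to 5.61 in CD25-CD49f- cells and from 6.53 over 7.67 to 8.09 in CD25-CD49f+ cells. The lowest CD25-CD49f+ value was that of replicate 1. The Cdc6 values were 6.82, 6.88, 6.75, 6.52 and 6.08 in CD25+CD49f- cells and 6.92, 7.51, 7.20 and 7.14 in CD25+CD49f+ cells, so that these 2 groups did not overlap. Its differences were 2.28 ± 0.19 (adjusted p = 1e-09) for CD49f in CD25- cells and 1.36 ± 0.20 (adjusted p = 1.75e-05) for CD25 in CD49f- cells, both against a group mean in the background range. The CD25-CD49f- means of Gins1, Gins2 and Mcm10 lay in that range too, which may limit the size of their differences. The GINS subunits Gins1 (1.08 ± 0.11) and Gins2 (1.18 ± 0.11), Mcm10 (1.10 ± 0.10), which helps activate the helicase, and Orc6 (0.59 ± 0.09), the smallest subunit of the origin recognition complex, were also higher for CD49f in CD25- cells. Cdt1, which loads the ring with Cdc6, was called there by 0.23 ± 0.08 (adjusted p = 0.0438) and lost the call in 13 of 23 fits without 1 array.

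The calls of Orc1 and Cdc45 depended on the probe set. Orc1, the largest subunit of the origin recognition complex, ran from 6.48 over 6.74 to 7.07 in CD25-CD49f- cells and from 6.57 over 6.75 to 7.12 in CD25-CD49f+ cells. Its values were 6.77, 6.50, 6.80, 6.45 and 7.03 in CD25+CD49f- cells and 6.85, 6.78, 6.72 and 6.89 in CD25+CD49f+ cells. All 4 groups overlapped, and the difference for CD49f in CD25- cells was 0.05 ± 0.10 (adjusted p = 0.823). With a second, dimmer Orc1 probe set the difference was 0.45 ± 0.11 (adjusted p = 0.00926, over all probe sets). Its 4 group means, 4.97 to 5.42, lay in the background range. Cdc45, part of the active helicase, gave -0.06 ± 0.08 (adjusted p = 0.753) with its brighter probe set and 1.37 ± 0.13 (adjusted p = 1.86e-08 over all probe sets) with the dimmer. The dimmer Cdc45 probe set read 5.49 in CD25-CD49f- cells, in the background range, and 6.86 in CD25-CD49f+ cells. Which probe set reads the transcript better was not tested. Over the 95 probe sets annotated to a single member, 63 were called higher and 0 lower for CD49f in CD25- cells. For CD25 in CD49f- cells 39 were called higher and 1 lower. The size of other differences also varied over the alternative settings listed below, which include the mean of a gene's probe sets. The lowest values for CD49f in CD25- cells were 0.68 for Pola1, 0.56 for Gins1, 0.40 for Mcm10 and 0.25 for Prim2.

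Polymerase and primase genes were called in 5 of 6 for CD49f in CD25- cells (median 0.79) and in 3 of 6 for CD25 in CD49f- cells (median 0.43). Pole, the catalytic subunit of the leading strand polymerase epsilon, ran from 5.63 over 6.0 to 6.05 in CD25-CD49f- cells and from 6.92 over 7.18 to 7.23 in CD25-CD49f+ cells. Its values were 6.35, 6.83, 6.73, 6.35 and 6.21 in CD25+CD49f- cells and 6.91, 6.99, 7.14 and 6.72 in CD25+CD49f+ cells. Every array of the other groups lay above the CD25-CD49f- arrays. The Pole difference was 1.20 ± 0.09 (adjusted p = 5.48e-10) for CD49f in CD25- cells and 0.45 ± 0.12 (adjusted p = 0.0504) for CD49f in CD25+ cells, each against a group mean in the background range (5.95 and 6.49). Pola1, the catalytic subunit of polymerase alpha, differed by 1.54 ± 0.18 in CD25- cells, and the primase subunits Prim1 and Prim2 by 0.85 ± 0.11 and 0.74 ± 0.14, that of Prim2 against a mean in the background range. Pola1 was also called by 0.60 ± 0.20 (adjusted p = 0.0423) for CD25 in CD49f- cells. Pold1, the catalytic subunit of polymerase delta, was called by 0.41 ± 0.14 (adjusted p = 0.0467) and lost the call in 16 of 23 fits without 1 array. Pola2, the accessory subunit of polymerase alpha, ran from 7.08 over 7.38 to 7.81 in CD25-CD49f- cells and from 7.39 over 7.57 to 7.72 in CD25-CD49f+ cells. Its values were 7.39, 7.41, 7.24, 7.11 and 6.74 in CD25+CD49f- cells and 7.11, 7.47, 7.64 and 7.28 in CD25+CD49f+ cells. The Pola2 groups overlapped, and its difference of 0.17 ± 0.12 (adjusted p = 0.429) for CD49f in CD25- cells did not pass the test, unlike that of Pola1.

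The clamp, its loader and its partner Pclaf gave 6 of 7 called members for CD49f in CD25- cells (median 0.91) and 3 of 7 for CD25 in CD49f- cells (median 0.43). Pclaf, a small protein that binds Pcna at forks, ran from 5.95 over 7.38 to 7.78 in CD25-CD49f- cells and from 9.60 over 10.28 to 10.54 in CD25-CD49f+ cells. It was 8.29, 8.58, 8.67, 8.12 and 8.15 in CD25+CD49f- cells and 9.19, 9.60, 9.34 and 9.14 in CD25+CD49f+ cells. Its groups were stacked almost without overlap, with only CD25+CD49f+ and CD25-CD49f+ cells touching at 9.60. The CD25-CD49f+ cells were 8.22-fold above the CD25-CD49f- cells (adjusted p = 2.41e-11), and 2.83 on the log2 scale without CD25-CD49f- replicate 7, the lowest array. Over all alternative settings this log2 difference of Pclaf ran from 1.25 to 3.18. Pcna itself differed by 0.91 ± 0.16 and the loader subunits Rfc3, Rfc4, Rfc5 and Rfc2 by 1.21, 1.34, 0.79 and 0.37 for CD49f in CD25- cells. Rfc3 had all 4 group means in the background range. Rfc1, the large subunit of the loader, ran from 7.53 over 8.22 to 8.40 in CD25-CD49f- cells and from 8.11 over 8.35 to 8.44 in CD25-CD49f+ cells. It was 8.33, 8.39, 8.21, 8.14 and 8.44 in CD25+CD49f- cells and 8.25, 8.31, 8.36 and 8.23 in CD25+CD49f+ cells. Its groups overlapped, with a difference of 0.21 ± 0.10 (adjusted p = 0.212) for CD49f in CD25- cells, and its other 2 probe sets were not called either.

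**Figure D3:**
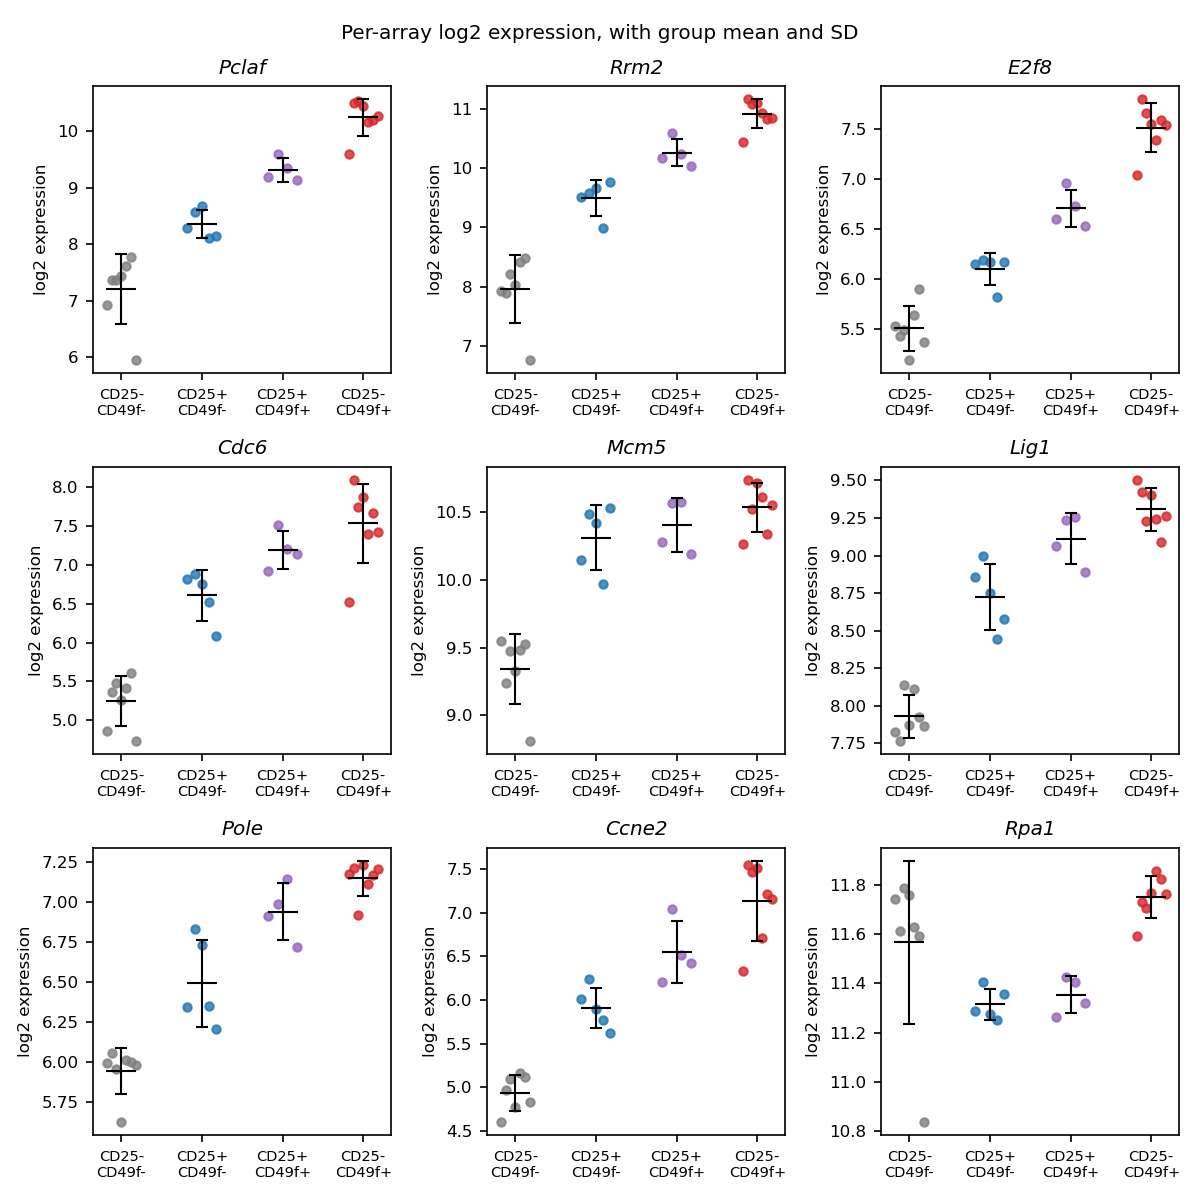
Each panel shows a gene's log2 expression on every array (points), by group, with the group mean and SD (bars). Pclaf, Rrm2, E2f8 and Ccne2 step up from CD25-CD49f- through CD25+CD49f- and CD25+CD49f+ to CD25-CD49f+ cells, Mcm5 overlaps among the upper 3 groups, and Rpa1 is lower in both CD25+ groups than in CD25-CD49f+ cells.

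In flap removal, ligation and single-strand binding, 3 of 4 members were called in each comparison with CD25-CD49f- cells (medians 0.51 and 0.42). Lig1, the ligase that joins Okazaki fragments, ran from 7.76 over 7.87 to 8.14 in CD25-CD49f- cells and from 9.09 over 9.26 to 9.50 in CD25-CD49f+ cells. It was 8.86, 9.0, 8.75, 8.44 and 8.57 in CD25+CD49f- cells and 9.07, 9.23, 9.26 and 8.89 in CD25+CD49f+ cells. The CD25-CD49f- arrays lay below all others, by 1.38 ± 0.09 against CD25-CD49f+ cells (adjusted p = 2.06e-11) and 0.80 ± 0.10 against CD25+CD49f- cells (adjusted p = 1.16e-06). Fen1, the flap endonuclease, differed by 0.53 ± 0.08, and Rpa2, a subunit of the single-strand binding protein, by 0.49 ± 0.08 for CD49f in CD25- cells. Rpa1, the large subunit of that protein, ran from 10.84 over 11.63 to 11.79 in CD25-CD49f- cells and from 11.60 over 11.76 to 11.86 in CD25-CD49f+ cells. It was 11.29, 11.41, 11.27, 11.25 and 11.36 in CD25+CD49f- cells and 11.26, 11.43, 11.40 and 11.32 in CD25+CD49f+ cells. Apart from CD25-CD49f- replicate 7, the lowest array of all, both CD25+ groups lay below both CD25- groups. With that array included the Rpa1 difference was -0.25 ± 0.11 (adjusted p = 0.171) for CD25 in CD49f- cells and -0.40 ± 0.12 (adjusted p = 0.0545) for CD25 in CD49f+ cells. Without it these were -0.37 (adjusted p = 1.44e-04) and -0.40 (adjusted p = 2.42e-04). A second, dimmer Rpa1 probe set had means of 10.31 in CD25-CD49f- and 9.59 in CD25+CD49f- cells. Its means were 10.53 in CD25-CD49f+ and 10.02 in CD25+CD49f+ cells. Rpa1 was the member whose CD25 difference ran against that of its partner Rpa2, which was 0.44 ± 0.09 in CD49f- cells.

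Genes of nucleotide supply were called in 4 of 5 in both comparisons with CD25-CD49f- cells, with medians of 1.02 and 0.41. Rrm2, the small subunit of ribonucleotide reductase, ran from 6.76 over 8.02 to 8.47 in CD25-CD49f- cells and from 10.44 over 10.94 to 11.17 in CD25-CD49f+ cells. It was 9.51, 9.58, 9.66, 8.98 and 9.76 in CD25+CD49f- cells and 10.18, 10.59, 10.24 and 10.04 in CD25+CD49f+ cells. The CD25-CD49f+ cells were 7.78-fold above the CD25-CD49f- cells (adjusted p = 1.37e-11), and every CD25+CD49f+ array lay above every CD25+CD49f- array. The large subunit gene Rrm1 differed less, by 0.98 ± 0.10 for CD49f in CD25- cells. Tk1, thymidine kinase, differed by 2.04 ± 0.14 from a mean in the background range and Dut, which removes dUTP, by 1.02 ± 0.09. Tyms, thymidylate synthase, was dim on the 4 probe sets annotated to it alone, and a brighter probe set was left out because it also names a pseudogene. It ran from 3.83 over 3.97 to 4.85 in CD25-CD49f- cells and from 4.09 over 4.22 to 4.80 in CD25-CD49f+ cells, and it was 4.10, 3.91, 4.15, 3.93 and 4.12 in CD25+CD49f- cells and 4.17, 4.08, 4.36 and 4.41 in CD25+CD49f+ cells. On the probe set used, all groups overlapped in the background range, with a difference of 0.26 ± 0.13 (adjusted p = 0.256) for CD49f in CD25- cells. Of the 4 probe sets 1 other was called, by 0.52 ± 0.12 (adjusted p = 0.00417 over all probe sets), with group means of 3.72 to 4.24, also in the background range.

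Chaf1b, a subunit of the chromatin assembly factor that places histones behind the fork, was the only chromatin assembly member measured. It was 5.49 to 5.87 on 6 CD25-CD49f- arrays and 7.44 on replicate 7, and it ran from 6.44 over 6.59 to 6.84 in CD25-CD49f+ cells. It was 6.25, 6.39, 6.02, 6.02 and 5.53 in CD25+CD49f- cells and 6.11, 6.25, 6.72 and 6.25 in CD25+CD49f+ cells. Replicate 7 of CD25-CD49f- cells was the highest of all 23 arrays, while its group held the lowest. The difference for CD49f in CD25- cells was 0.66 ± 0.20 (adjusted p = 0.0298) with that array and 0.91 ± 0.11 (adjusted p = 1.46e-06) without it, and it lost the call in 8 of 23 fits without 1 array.

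All 5 regulators of S phase entry were higher for CD49f in CD25- cells (median 1.11), and 3 of 5 for CD25 in CD49f- cells (median 0.56). E2f8, a repressor of the E2F family that is itself switched on in S phase, ran from 5.20 over 5.50 to 5.91 in CD25-CD49f- cells and from 7.03 over 7.55 to 7.80 in CD25-CD49f+ cells. It was 6.15, 6.20, 6.18, 5.82 and 6.17 in CD25+CD49f- cells and 6.60, 6.96, 6.73 and 6.53 in CD25+CD49f+ cells. Only CD25-CD49f- and CD25+CD49f- cells overlapped. The difference for CD49f in CD25- cells, 2.0 ± 0.11 (adjusted p = 1.31e-12), had the smallest p of all members, and its means in CD25-CD49f- and CD25+CD49f- cells lay in the background range. Over all alternative settings this E2f8 difference ran from 0.95 to 2.08. The activator genes E2f2 (1.11 ± 0.08) and E2f1 (0.33 ± 0.09) were also called, with E2f1 in the background range in every group. Cyclin E, the partner of Cdk2 that starts S phase, comes from 2 genes, which differed in size of change. Ccne2 differed by 2.20 ± 0.16 for CD49f in CD25- cells and by 0.97 ± 0.18 for CD25 in CD49f- cells, with both CD49f- means in the background range. Ccne1 ran from 7.77 over 8.33 to 8.49 in CD25-CD49f- cells and from 8.26 over 8.81 to 9.11 in CD25-CD49f+ cells. It was 8.11, 8.20, 8.53, 8.36 and 8.84 in CD25+CD49f- cells and 8.43, 8.61, 8.58 and 8.26 in CD25+CD49f+ cells. Its groups overlapped, with differences of 0.46 ± 0.13 (adjusted p = 0.0169) for CD49f in CD25- cells and 0.15 ± 0.14 (adjusted p = 0.615) for CD25 in CD49f- cells.

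Within CD25+ cells, where regulatory T cells are found, CD49f set the replication genes apart much less. Pclaf (0.96 ± 0.25, adjusted p = 0.0497) and E2f8 (0.60 ± 0.14, adjusted p = 0.0154) were higher in CD25+CD49f+ cells and 0 members were lower, where 0.352% of all genes were called higher and 1.47% lower. The median member difference was 0.28 against 0.01 over all genes, and 39 of 42 differences were above 0. All CD25+CD49f+ arrays lay above all CD25+CD49f- arrays for Pclaf, E2f8, Rrm2, Cdc6 and Gins2, as in 1.72% of all genes. Of the myeloid and dendritic markers 3 of 10 were lower, as were 1 of 6 plasma cell and 1 of 5 NK markers. Prdm1 stood at 6.73 against 7.68 and Eomes at 7.65 against 8.39. The part of these markers was not tested. Pclaf lost its call in 18 of 23 fits without 1 array and E2f8 in 3, namely without CD25+CD49f+ replicate 2 or 3 (0.52 and 0.59) or CD25+CD49f- replicate 4 (0.53). Leaving out CD25-CD49f- replicate 7 gave 4 calls, with the differences themselves unchanged. The 2 subsets by Xist and Y-linked transcripts, with 2 arrays a group, called 0 members, with medians of 0.12 and 0.24. Without the 4 arrays that stood apart 3 members were called.

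Within CD49f+ cells, the CD25+ cells were below the CD25- cells in 33 of 42 members. Pclaf (-0.93 ± 0.24, adjusted p = 0.0146) and E2f8 (-0.80 ± 0.13, adjusted p = 1.23e-04) were lower and 0 members were higher, where 2.91% of all genes were called lower and 2.81% higher. The median was -0.15 against 0.02 over all genes. Of the markers of other cells, 1 of 7 for B cells and 1 of 5 for NK cells were called lower. Of 6 erythroid markers 1 was called higher. Klrd1 stood at 6.41 against 7.65 and Gata1 at 7.85 against 6.79, and the part of such markers was not tested. Prim1, Rpa1 and E2f8 were lower on every CD25+CD49f+ array than on any CD25-CD49f+ array, as were 3.9% of all genes. Both this count and that of the lower calls are near the share of all genes, so the genes named are single values. The count of calls rested on few arrays: it was 5 without CD25-CD49f+ replicate 1, 4 without CD25-CD49f- replicate 7, 1 without CD25+CD49f+ replicate 1 or 4, and 11 without the 4 arrays that stood apart, a fit in which all calls rose from 1040 to 2361 genes. The arrays without Y-linked transcripts called 0 members and the Y-linked arrays 1. Quantile scaling gave 5 calls.

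The CD49f difference was larger in CD25- than in CD25+ cells in 39 of 42 members, and the interaction tested this directly. It was called below 0 for 21 members and above 0 for 0, where 4.33% of all genes were called below 0 and 0.984% above. The median interaction was -0.60 against 0.03 over all genes. Rrm2 (-2.20 ± 0.30, adjusted p = 2.01e-05), Pclaf (-2.08 ± 0.32, adjusted p = 9.45e-05) and Cdc6 (-1.70 ± 0.30, adjusted p = 4.35e-04) had the largest, followed by Ccne2 (-1.56), Tk1 (-1.55) and E2f8 (-1.39). Over all alternative settings Pclaf ran from -2.33 to -0.92 and E2f8 from -1.48 to -0.59. Rrm2 varied less, from -2.35 to -1.88, as did Cdc6, from -1.94 to -1.61. Cdc6, Ccne2, Tk1 and E2f8 had CD25-CD49f- means in the background range, and Ccne2 and E2f8 also CD25+CD49f- means, so their sizes and order may be limited by background. Mcm5, Mcm6, Mcm7, Orc6, Gins1, Gins2, Mcm10, Pola1, Pole, Rfc2, Rfc3, Lig1, Rrm1, Dut and E2f2 made up the rest, from -1.10 to -0.39. Orc1 (0.04 ± 0.16), Pola2 (0.03 ± 0.19) and Tyms (-0.04 ± 0.21) had the smallest, none of them called. The call held in all 23 fits without 1 array for 14 of the 21. Mcm6 lost it in 18 fits, Rfc3 in 12, Orc6 in 4, Pola1 in 3, Mcm7 and Rfc2 in 2 each and Rrm1 in 1. Chaf1b, not called with all arrays (-0.37 ± 0.33, adjusted p = 0.717), gave -0.62 (adjusted p = 0.0369) without CD25-CD49f- replicate 7. Subsets by Xist and Y-linked transcripts called 8 and 3 members, with medians of -0.75 and -0.62, and 30 were called without the 4 arrays that stood apart.

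The members with and without an E2F-type word in the promoter window both contained called genes. Of the 13 with a word, 12 were called for CD49f in CD25- cells, with a median of 1.14, and 11 for CD25 in CD49f- cells. Of the 22 measured members with a window and no word, 17 and 10 were called, with a median of 0.66 for CD49f in CD25- cells. The exception among the 13 was Orc1, whose brighter probe set was flat. Rrm2, Tk1 and E2f8 were called with no such word in their window. These numbers describe the list, and the letters show neither binding nor its absence.

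A wider list of replication genes was read in the same way. Of 61 listed, 59 were measured: 26 were higher and 2 lower for CD49f in CD25- cells (8.01% and 5.42% of all genes), 17 and 3 for CD25 in CD49f- cells (9.34% and 4.68%), 1 and 0 for CD49f in CD25+ cells (0.352% and 1.47%), and 1 and 4 for CD25 in CD49f+ cells (2.81% and 2.91%). The lower counts in the first 2 comparisons and the higher count in the last are near or under the share of all genes, so the genes named from them are single values and no pattern of the list. Their medians were 0.30, 0.17, 0.15 and -0.09. Uhrf1, which guides maintenance methylation of new DNA, Gmnn, the geminin that blocks relicensing, and Asf1b, a histone chaperone, were higher by 2.44, 2.20 and 1.38 for CD49f in CD25- cells. Uhrf1 and Gmnn were higher by 1.46 and 1.35 for CD25 in CD49f- cells, as was Rb1, the retinoblastoma repressor of E2F, by 0.82. Pole2, the accessory subunit of polymerase epsilon, ran against Pole and was lower by -0.46 ± 0.14 for CD49f in CD25- cells and by -0.97 ± 0.16 for CD25 in CD49f- cells. Mcmbp, which binds and unloads Mcm rings, was lower by -0.39 and -0.47 in the same comparisons, and Cdc7, a kinase that fires origins, by -0.37 in the second. Clspn, the checkpoint adaptor claspin, was higher by 0.69 for CD49f in CD25+ cells and lower by -0.73 for CD25 in CD49f+ cells, where Asf1b (-0.67) and Dbf4 (-0.87), the partner of Cdc7, were also lower and Samhd1 (0.46), which breaks down deoxynucleotides, was higher. The interaction was called for 14 of the 59, 13 below 0 and 1 above 0, where 4.33% and 0.984% of all genes were called. Uhrf1 (-1.91), Gmnn (-1.75) and Asf1b (-1.06) led those below 0. The gene above 0 was Mcmbp (0.43), a single value in a count near the share of all genes.

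Genes of mitosis, which act after replication, had the same order of group means over a wider range. Over 19 measured mitosis genes CD25-CD49f- arrays averaged 6.17 ± 0.19 (SD, n = 7), the CD25+CD49f- arrays 6.66 ± 0.20 (SD, n = 5), the CD25+CD49f+ arrays 7.39 ± 0.30 (SD, n = 4) and the CD25-CD49f+ arrays 8.40 ± 0.20 (SD, n = 7). The CD25-CD49f- mean lay under 6.50, but that level comes from 1 probe set and a mean over several does not show which genes are near background. Of the 19 genes 18 were higher for CD49f in CD25- cells (median 2.27, 8.01% of all genes), 8 for CD25 in CD49f- cells (median 0.50, 9.34% of all genes) and 10 for CD49f in CD25+ cells (median 0.73, 0.352% of all genes). For CD25 in CD49f+ cells 18 were lower (median -0.97, 2.91% of all genes).

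**Figure D4:**
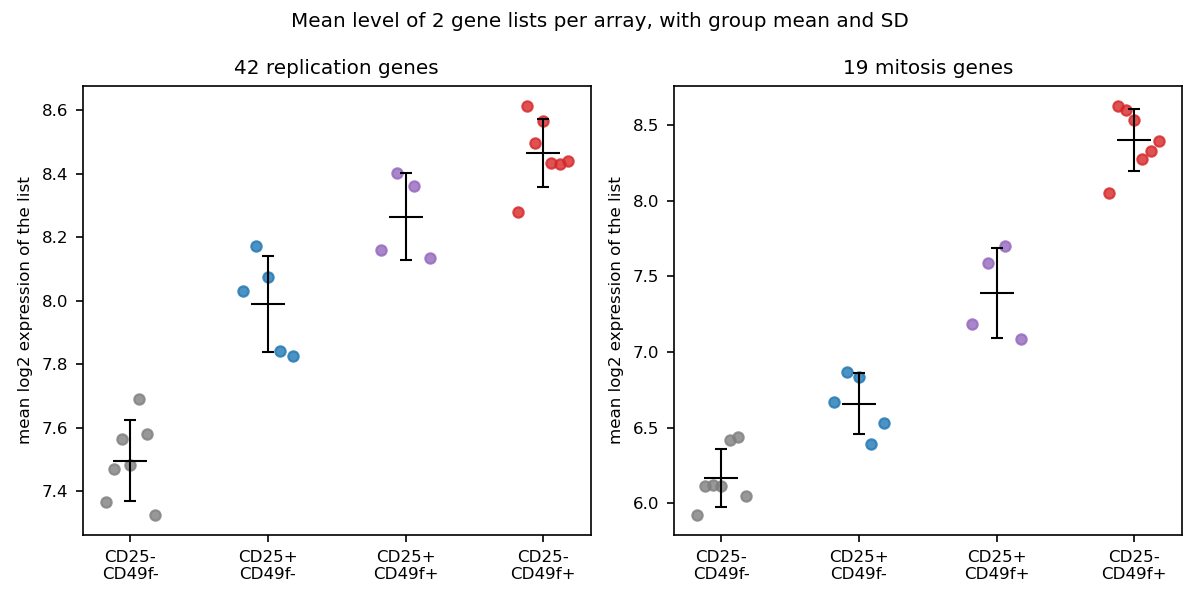
Points give the mean log2 expression per array of 42 replication members (left) and 19 mitosis genes (right), by group, with the group mean and SD (bars). CD25+CD49f- cells stand at 7.99 between 7.50 and 8.47 for replication, and at 6.66 between 6.17 and 8.40 for mitosis. The CD25-CD49f- mean for mitosis lies below 6.50, the highest reading of the Xist probe set on arrays without Xist.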

How the data were processed

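The authors deposited log2 values for 45101 probe sets on each of 23 arrays, made with RMA, per the submitters' processing notes, in a version not given in the sources used here. RMA corrects background, scales arrays by quantiles and summarises probes, so levels are comparable between arrays but not between probe sets. No further scaling was applied. A single gene was annotated to 34958 probe sets, several to 932 and none to 9211; 34754 matched the mouse RefSeq table (GRCm38.p6) by Entrez identifier. Keeping the probe set with the highest mean per gene left 18194 genes. The bright probe set of Tyms also names a pseudogene entry and was not used.

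A single linear model with all 4 groups was fitted per gene (limma 3.58.1, R 4.3.3; lmFit, contrasts.fit and eBayes). P-values were adjusted by Benjamini-Hochberg over all genes, with a threshold of 0.05. The fit was tested on simulated data. P-values reflect spread among the labelled biological replicates. Arrays counted as Y-linked above a log2 level of 6 and as Xist positive above 8. Members, lists, tests and the naming rule were chosen with earlier results of these data known. Values per array are given for the members with the smallest and largest p of each role for CD49f in CD25- cells, the 3 largest and 3 smallest interactions and those called within CD25+ cells; of the other replication genes, the 3 smallest p per direction were named. Arrays of the same replicate number were not treated as pairs, because the labels do not say whether equal numbers mark the same sort. Figures were drawn with matplotlib 3.10.9 in Python 3.11.15.

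The alternatives included every fit without 1 array, a block for replicate number, quantile or median scaling, the mean of a gene's probe sets, the brighter genes, robust trended eBayes, the compared groups alone, a covariate for the Actb difference and a threshold of 0.01. Fits without the 4 arrays that stood apart and within arrays with or without Y-linked transcripts were added after seeing the data.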

Additional observations from a re-analysis of the deposited data

Results flagged for a closer look

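In 24 of 172 groups of arrays checked, the highest or lowest array lay further from the rest than Dixon's 95% critical value allows, and chance gives about 1 in 20. Of these, 11 fell on CD25-CD49f- replicate 7, the array with the lowest correlation to its group. It was the lowest of its group in Mcm2 (7.54), Mcm3 (7.57), Mcm5 (8.81), Pold1 (7.15), Rfc1 (7.53), Rpa1 (10.84), Rrm2 (6.76), Ccne1 (7.77) and E2f1 (5.05), and the highest in Chaf1b (7.44) and Tyms (4.85). CD25-CD49f+ replicate 1 was lowest in Mcm2 (8.56), Mcm3 (8.72) and Pclaf (9.60). Among the remaining CD25- arrays, Orc6 was highest on CD25-CD49f- replicate 5 (7.32), and the lowest values were Pole on CD25-CD49f- replicate 4 (5.63) and CD25-CD49f+ replicate 3 (6.92), Fen1 on CD25-CD49f+ replicate 6 (9.73) and Rrm1 on CD25-CD49f- replicate 1 (7.25). Among CD25+ arrays, CD25+CD49f- replicate 4 was lowest in Orc6 (7.0) and E2f8 (5.82), CD25+CD49f+ replicate 4 in Pcna (11.79) and CD25+CD49f+ replicate 1 in E2f2 (8.84), and CD25+CD49f+ replicate 2 was highest in Gins2 (7.70).

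The CD49f difference was smaller in CD25+ than in CD25- cells, by limma's test of the interaction at an adjusted p under 0.05, in 21 members. In the helicase these were Mcm5 (-1.10), Mcm6 (-0.76) and Mcm7 (-0.46). In licensing and activation they were Cdc6 (-1.70), Gins2 (-0.87), Gins1 (-0.76), Mcm10 (-0.75) and Orc6 (-0.54). Polymerases gave Pola1 (-1.10) and Pole (-0.75), the clamp group Pclaf (-2.08), Rfc3 (-0.91) and Rfc2 (-0.39), and ligation Lig1 (-0.99). Nucleotide supply gave Rrm2 (-2.20), Tk1 (-1.55), Dut (-0.64) and Rrm1 (-0.64), and S phase entry Ccne2 (-1.56), E2f8 (-1.39) and E2f2 (-0.85).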

How the results depend on the processing

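The higher replication genes of CD25-CD49f+ over CD25-CD49f- cells were 33 to 36 of 42 without any 1 array and 29 to 37 under the other settings, so their count stayed within 1.5 times the main one throughout. The setting of the brighter genes held fewer than 42 members. The mean of the probe sets lowered the median difference of the members to 0.71. For CD49f in CD25+ cells the 2 calls became 0 to 4 without 1 array, 4 under quantile scaling, 1 under median centring and with the Actb covariate, and 0 at a threshold of 0.01. For CD25 in CD49f+ cells the 2 calls became 1 to 5 without 1 array, 5 under quantile scaling and with the Actb covariate, 6 with the mean of the probe sets and with the compared groups alone, 11 without the 4 arrays that stood apart, and 1 at 0.01. In the arrays without Y-linked transcripts, calls of members for CD49f in CD25+ cells, CD25 in CD49f+ cells and the interaction were 0, 0 and 8, with medians of 0.12 for the first, -0.75 for the interaction and 0.59 for CD25 in CD49f- cells. In the Y-linked arrays the same calls were 0, 1 and 3, with 12 for CD25 in CD49f- cells. These subsets hold fewer arrays. Otherwise the cause was not tested.

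Over all genes, the arrays without Y-linked transcripts called 119 for CD49f in CD25+ cells, 1340 for CD49f in CD25- cells, 493 for CD25 in CD49f+ cells, 1284 for CD25 in CD49f- cells and 370 for the interaction. The Y-linked arrays called 92, 1080, 264, 1004 and 242 in that order. Without the 4 arrays that stood apart, CD49f in CD25+ cells gave 588, CD25 in CD49f+ cells 2361 and the interaction 1710. At 0.01 the same 3 gave 211, 675 and 599. The brighter genes gave 203 for CD49f in CD25+ cells, out of a smaller set of genes tested, so this count cannot be set directly beside the others. With all arrays these counts were 332, 2443, 1040, 2551 and 966. Cdc45 reversed with the mean of its probe sets, to 0.65 for CD49f in CD25- cells, 0.29 for CD25 in CD49f- cells and -0.39 for the interaction, because its 2 probe sets differ.

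Of 29 pairs of arrays with the same replicate number, 15 deviated together (correlation over 0.1), and correlations over the 29 pairs ran from -0.51 to 0.41. Arrays of different numbers were not compared in this way, so these values cannot decide whether equal numbers mark paired samples. The main fit did not treat them as pairs. With a replicate block the called members were 35 for CD49f in CD25- cells, 25 for CD25 in CD49f- cells, 3 for CD49f in CD25+ cells, 5 for CD25 in CD49f+ cells and 19 for the interaction.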
